A study of Mus musculus with 15 samples.

Results

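Complement is a set of secreted and membrane proteins that marks surfaces for removal. C1q, built from the products of C1qa, C1qb and C1qc, binds a target and starts the classical pathway. C3 and C4 fragments are then deposited on that target, and phagocytes read them through complement receptor 3. In spinal muscular atrophy (SMA), C1q has been found on the sensory synapses that motor neurons lose early in the disease, and microglia, the phagocytes of the nervous system, are its main source there. The 10 genes described here were chosen by symbol, with earlier results of these data known, and cover this route. C1qa, C1qb, C1qc, C3 and C4b tag synapses. Itgam and Itgb2 encode both chains of complement receptor 3. Serping1 (C1 inhibitor), Cd55 (decay-accelerating factor) and Cd47 (a "do not eat me" signal read by Sirpa) restrain tagging or engulfment. All 10 were among the 36144 genes of the deposited table, and 9 were tested. Itgam stayed under 1 TPM in every library and did not pass the filter on low values (at least 1 TPM in at least 3 libraries).

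RNA came from lumbar motor neurons (segments L1 to L3) of mice at postnatal day 6, traced with cholera toxin subunit B and cut out by laser. There were 5 groups with 3 biological replicates each, from equal proportions of males and females on an FVB background. WT mice were Smn+/+;SMN2;SMNΔ7 littermates and SMA mice were Smn-/-;SMN2;SMNΔ7, so every group carried the human SMN2 and SMNΔ7 transgenes. Both received vehicle. The other groups were SMA mice given 1 compound each by intraperitoneal injection every day from postnatal day 0. MW150, at a dose of 5 mg/kg, inhibits p38α, a stress kinase. Pifithrin-α, at a dose of 2.2 mg/kg, inhibits p53, a transcription factor that can drive cell death. SMN-C3, at a dose of 3 mg/kg, makes splicing of SMN2 include its otherwise skipped exon. The doses differ between compounds, so each treated group is set against SMA and WT and not against another compound. The labels do not say how many animals or cells make up a library.

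Smn1, the gene missing in SMA, was at 8.97 to 23.3 TPM in WT and at 0 to 1.498 TPM in the other 12 libraries. Motor neuron markers were present in every library: Chat, which makes acetylcholine, was at 75.1 to 120 TPM in WT, and the summed level of 10 such markers was 1657 to 4560 TPM over all libraries. RNA of other cells was present too. The sums were 75.3 to 169.8 TPM for 14 microglia markers, 162 to 725 TPM for 10 astrocyte markers and 445 to 5849 TPM for 10 oligodendrocyte lineage markers. Between 12311 and 14916 genes per library reached 1 TPM. Mitochondrially encoded genes accounted for 3.76% to 7.55% of TPM in 11 libraries. WT 1 had 21.9%, SMA+Pifithrin-alpha 3 had 20.4%, SMA+Pifithrin-alpha 2 had 12.6% and SMA+SMN-C3 1 had 11.3%. In such bulk samples, fewer cells of a type and less RNA per cell cannot be told apart. TPM, a unit of transcript abundance, is scaled by transcript length and library total and keeps no read depth.

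The C1q genes lie side by side on chromosome 4 (GRCm38), within 18675 bases on the minus strand. C1qb (ENSMUSG00000036905.8) is at 136880129 to 136886187, C1qc (ENSMUSG00000036896.5) at 136889804 to 136893065 and C1qa (ENSMUSG00000036887.5) at 136895917 to 136898803. Because these neighbours had alike profiles over the libraries, the bases before C1qb and C1qc are shown, from RefSeq on GRCm38.p6, minus strand, 5′ to 3′. For C1qb they are chr4:136886201-136886450, and for C1qc chr4:136893066-136893164, where the GENCODE model of the gene begins after the last base. Capitals mark GAGGAA or its reverse complement TTCCTC, the core of the site bound by PU.1, a transcription factor of microglia and other myeloid cells.
C1qb: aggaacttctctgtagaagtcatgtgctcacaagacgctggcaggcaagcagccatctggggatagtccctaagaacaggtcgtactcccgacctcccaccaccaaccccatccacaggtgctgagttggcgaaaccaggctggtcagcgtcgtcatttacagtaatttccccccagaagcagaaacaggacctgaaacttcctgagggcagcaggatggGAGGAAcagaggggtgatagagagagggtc
C1qc: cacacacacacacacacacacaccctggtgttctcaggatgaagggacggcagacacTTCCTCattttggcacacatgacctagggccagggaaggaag
GAGGAA was searched on both strands in the 250 bases before each start site. It occurred in 7639 of 32851 RefSeq promoters (23.3%), and in 3 of the 6 members with an entry, C1qb, C1qc and Itgam; C3, Cd55 and Cd47 held none in that window. A match of 6 letters is a description of the sequence and not a bound site.

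The C1q genes were higher in SMA than in WT, between WT and SMA levels in the treated groups, and C1qc was the 1 member that passed the test. C1qc, the third C1q chain, stood at 4.28, 8.91 and 5.80 TPM in the WT libraries and 19.6, 30.2 and 25.4 TPM in those of SMA. It rose from 6.33 ± 2.36 to 25.1 ± 5.31 TPM (SD, n = 3), a log2 change of 1.86 (SE 0.32, limma adjusted p 0.014, on the log2(TPM+1) scale). This call was lost without WT 1 (adjusted p 0.056), SMA 2 (0.084) or SMA 3 (0.054), and in a fit of SMA and WT alone (0.26). With MW150 it was at 16.9, 16.9 and 12.3 TPM, with Pifithrin-alpha at 8.57, 7.40 and 8.27 TPM and with SMN-C3 at 9.01, 13.05 and 6.71 TPM. Every SMA library lay above every WT library and above every treated library. The MW150 libraries also lay above all WT libraries, whereas those of the other treatments overlapped WT.

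C1qa, the first C1q chain, stood at 1.76, 5.44 and 4.26 TPM in the WT libraries and 17.3, 16.8 and 14.4 TPM in those of SMA. With MW150 it was at 13.1, 12.2 and 9.66 TPM, with Pifithrin-alpha at 10.8, 4.94 and 1.11 TPM and with SMN-C3 at 10.2, 10.6 and 7.19 TPM. The groups did not overlap between SMA and WT, nor between SMA and any treatment. C1qb, the second chain, stood at 3.76, 9.10 and 14.7 TPM in the WT libraries and 22.5, 37.9 and 32.5 TPM in those of SMA. With MW150 C1qb was at 35.1, 21.1 and 19.9 TPM, with Pifithrin-alpha at 23.4, 10.5 and 4.45 TPM and with SMN-C3 at 15.3, 25.9 and 15.1 TPM. Here SMA lay above WT, but each treatment overlapped SMA. The log2 changes between SMA and WT were 1.92 for C1qa (SE 0.49, adjusted p 0.13) and 1.78 for C1qb (SE 0.50, adjusted p 0.18), which did not pass. Over the 15 libraries the log2 levels of the chains ran together, with r 0.94 between C1qa and C1qb, 0.79 between C1qa and C1qc and 0.78 between C1qb and C1qc. After each group's mean was removed these were 0.85, 0.39 and 0.49.

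**Figure D1:**
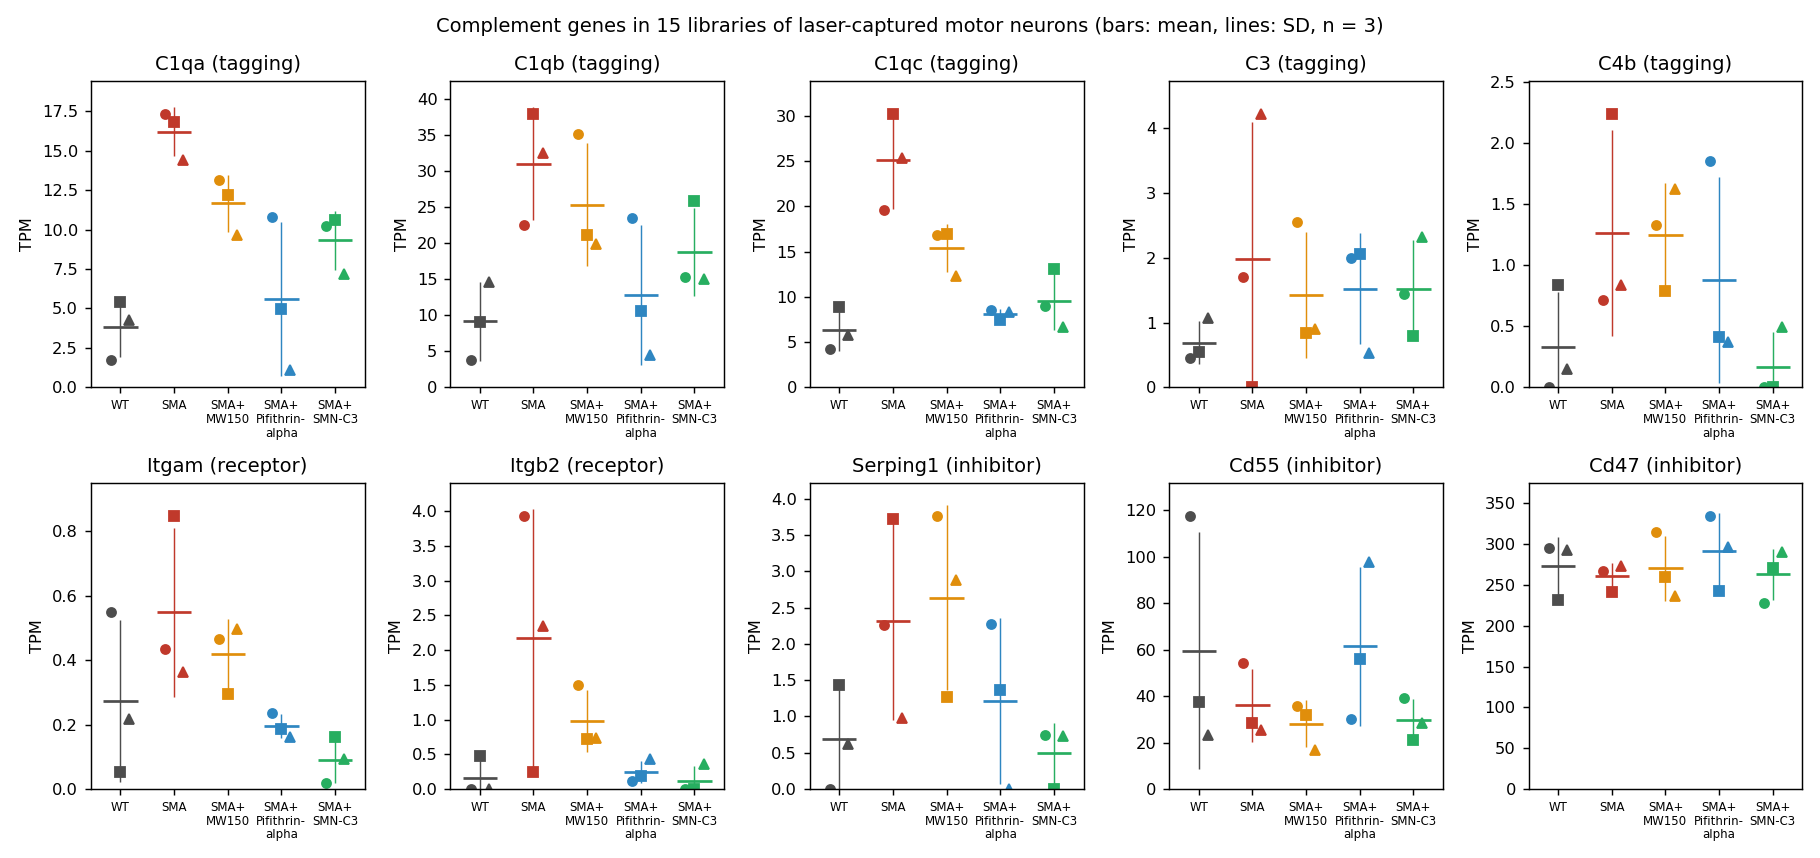
Level of each of the 10 members in TPM (y axis, from 0, with its own scale per gene) in the 15 libraries by group (x axis); circles, squares and triangles are replicates 1, 2 and 3, horizontal bars the mean and vertical lines the SD (n = 3). The 3 SMA libraries sit above the 3 WT libraries for C1qa, C1qb and C1qc, while Cd47 stays between 229 and 335 TPM everywhere.

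Summed over the 3 chains, C1q was at 19.3 ± 8.27 TPM in WT, 72.3 ± 12.8 TPM in SMA, 52.4 ± 11.8 TPM with MW150, 37.7 ± 10.6 TPM with SMN-C3 and 26.5 ± 14.8 TPM with Pifithrin-alpha (SD, n = 3). The chains assemble in equal numbers in the protein, but their RNA was uneven. Over the 15 libraries C1qb made up a mean of 45.9% of the sum, C1qc 32.4% and C1qa 21.7%. The share of C1qc was 34.5 ± 1.37% in SMA and 25.2 ± 1.78% with SMN-C3, with no overlap between those groups. SMA+Pifithrin-alpha 3 stood apart, with C1qa at 8.04% and C1qc at 59.8% of its sum of 13.8 TPM, the smallest sum after the 9.79 TPM of WT 1. These are the libraries with the highest mitochondrial shares. Without that pair of libraries the change between SMA and WT was 1.56 for C1qa (adjusted p 0.035), 1.32 for C1qb (0.16) and 1.65 for C1qc (0.020), in an alternative chosen after the data were seen. Without WT 1 alone the changes of C1qa and C1qc were the same 1.56 and 1.65, but neither passed (adjusted p 0.49 and 0.056). Of these fits, C1qa thus passed in the fit that also left out the Pifithrin-alpha library. Why it passed there was not tested.

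The summed level of the microglia markers was highest in SMA. It was 76.9 to 90.7 TPM in WT, 145 to 169.8 in SMA, 105 to 155 with MW150, 75.3 to 93.9 with SMN-C3 and 76.2 to 119 with Pifithrin-alpha. For SMA against WT, 13 of 14 markers had a higher estimate (median log2 change 0.74), 5 with an unadjusted p under 0.05 and none called. Over all tested genes 66.5% had a higher estimate (median 0.24), 10.6% with such a p, and 0.363% were called. Csf1r, the receptor that microglia need to survive, was at 2.95 TPM on average in WT libraries and 5.38 TPM in SMA libraries (log2 0.72, adjusted p 0.41), Cx3cr1 at 2.16 and 4.09 TPM (0.67, 0.37), P2ry12 at 4.98 and 9.13 TPM (1.01, 0.37) and Tmem119 at 1.36 and 3.81 TPM (0.80, 0.47). Single markers did not all follow the sum. With MW150 the mean of Csf1r was 5.66 TPM and that of Cx3cr1 4.54 TPM, each above SMA. The mean of P2ry12 was 9.41 TPM with Pifithrin-alpha, also above SMA, through 1 library at 14.5 TPM. Its mean log2 level was lower (3.30 against 3.31). In limma, 14 of 14 markers had lower estimates than in SMA with Pifithrin-alpha and with SMN-C3, 6 each with an unadjusted p under 0.05. Over all genes 65.5% and 73.2% were lower, 7.55% and 7.94% with such a p. With MW150, 10 were lower and 4 higher, against 42.1% of all genes lower. None of the 14 was at 0 in all libraries of any group. The part of microglial RNA in the C1q differences was not tested.

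The C1q sum divided by the microglia marker sum was 0.117 to 0.322 in WT, 0.384 to 0.501 in SMA, 0.365 to 0.478 with MW150, 0.385 to 0.527 with SMN-C3 and 0.182 to 0.360 with Pifithrin-alpha. SMA, MW150 and SMN-C3 libraries all lay above the WT libraries in this ratio, and Pifithrin-alpha libraries overlapped WT. With SMN-C3 the marker sum lay in the range of WT or next to it while the ratio lay in the range of SMA or next to it. Divided by Csf1r alone, C1q was at 6.03 to 7.07 in WT and 13.2 to 14.04 in SMA. MW150, at 6.26 to 11.6, overlapped WT. By that measure Pifithrin-alpha, at 7.62 to 12.3, lay above WT, and SMN-C3 ran from 10.3 to 20.8. The order of the treated groups thus depended on the marker used, and no test was made of these ratios. Macrophage markers summed to at most 4.15 TPM in any library, with Lyve1 at 0 throughout WT, Pifithrin-alpha and SMN-C3, and Mrc1 at 0 throughout SMN-C3.

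**Figure D2:**
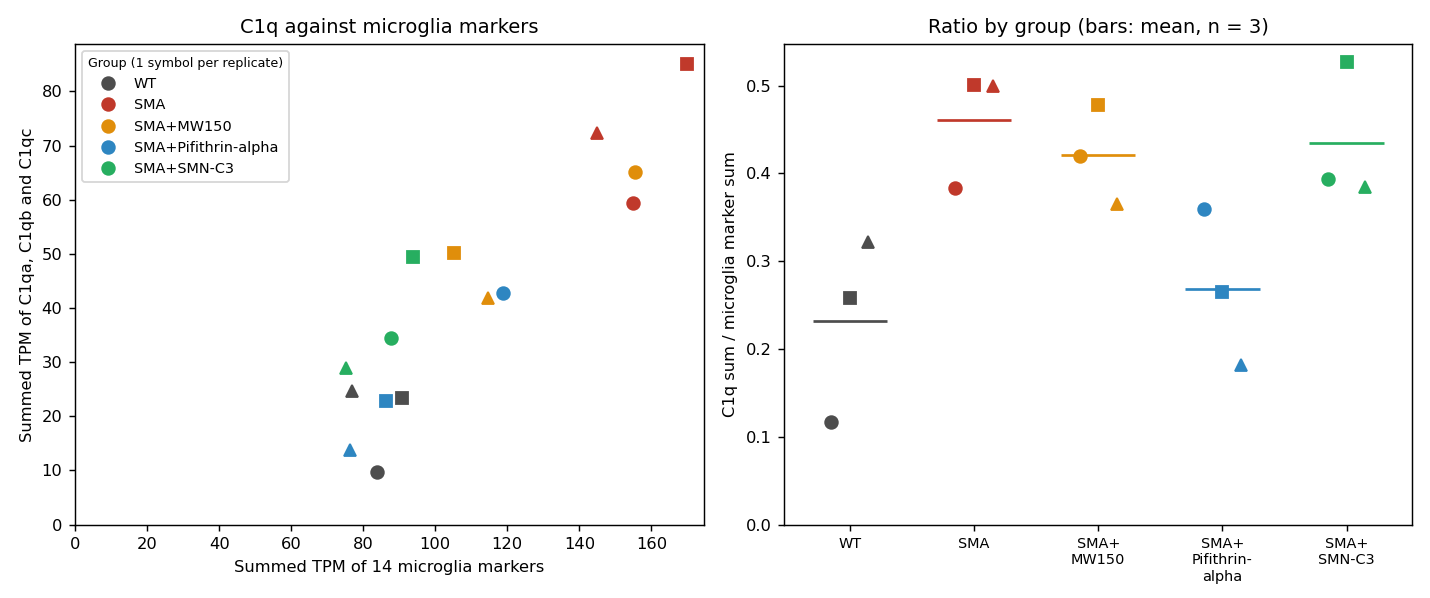
Left, summed TPM of C1qa, C1qb and C1qc (y axis) against the summed TPM of 14 microglia markers (x axis), 1 point per library; right, the ratio of the 2 sums by group, with bars for the mean (n = 3). SMA libraries sit at the upper right, and the ratio in SMN-C3 libraries (0.385 to 0.527) lies above WT (0.117 to 0.322) at a similar marker sum.

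C3, the central protein of all complement pathways (ENSMUSG00000024164.15; chromosome 17, 57203970 to 57228136, minus strand, overlapping Mir6978 on its strand), was low. It stood at 0.460, 0.539 and 1.06 TPM in the WT libraries, and those of SMA were listed at 1.70, 0 and 4.22 TPM. In the treated groups C3 ranged from 0.532 to 2.54 TPM. SMA alone covered the range of all other groups, and its log2 change from WT was 0.53 (adjusted p 0.61). C4b, which is cleaved after C1q binds (ENSMUSG00000073418.4; chromosome 17, 34728380 to 34743882, minus strand), had listed values of 0, 0.839 and 0.151 TPM in WT, 0.713, 2.24 and 0.839 TPM in SMA and 0, 0 and 0.495 TPM with SMN-C3. Every SMN-C3 library was below every SMA library (log2 -0.92, unadjusted p 0.034, adjusted p 0.55). With MW150 C4b was at 1.33, 0.787 and 1.63 TPM and with Pifithrin-alpha at 1.85, 0.411 and 0.373 TPM, overlapping SMA. Its near-identical copy C4a was not analysed here, so reads may be shared and the C4b values are uncertain. Of the C4b TPM, 51.6% was assigned to a transcript that retains an intron.

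Receptor genes were the least abundant. Itgam, the αM chain of complement receptor 3 (ENSMUSG00000030786.18; chromosome 7, 128062640 to 128118491, plus strand, overlapping Gm49368 on its strand), stood at 0.549, 0.0533 and 0.219 TPM in the WT libraries and 0.435, 0.849 and 0.363 TPM in those of SMA. With SMN-C3 it was at 0.0175, 0.161 and 0.0934 TPM, below all SMA libraries, and it was at 0.296 to 0.497 TPM with MW150 and 0.163 to 0.238 TPM with Pifithrin-alpha. It was not tested. Itgb2, the β2 chain (ENSMUSG00000000290.13; chromosome 10, 77530252 to 77565708, plus strand), had listed values of 0, 0.473 and 0 TPM in the WT libraries and 3.94, 0.244 and 2.34 TPM in those of SMA. With MW150 it was at 1.49, 0.714 and 0.740 TPM, with Pifithrin-alpha at 0.119, 0.192 and 0.427 TPM and with SMN-C3 listed at 0, 0 and 0.363 TPM. SMA 2 thus lay within the WT range, while every MW150 library lay above WT. The change of Itgb2 from WT to SMA was 1.27 on the log2 scale (SE 0.43, limma unadjusted p 0.0092, adjusted p 0.27). Itgb2 reached 1 TPM in 3 libraries, SMA 1, SMA 3 and SMA+MW150 1, so it passed the filter mainly through the group where it was high.

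Itgb2 is expressed by all leukocytes, so neutrophil markers are set beside it. Their sum was 0 to 0.463 TPM in WT and 1.86, 21.8 and 29.2 TPM in SMA 1, 2 and 3. S100a8 and S100a9 made up most of it in SMA 2 (7.86 and 11.3 TPM) and SMA 3 (12.7 and 14.96 TPM). In SMA 1, which had the highest Itgb2 value, the sum came from Ly6g, at 1.86 TPM the highest of any library. The sum was 1.73 to 11.4 TPM with MW150, 0 to 7.55 TPM with SMN-C3 and 0 to 3.25 TPM with Pifithrin-alpha. Of the 6 markers, Ly6g, Camp and Elane were at 0 in all libraries of WT, Elane also in all of SMA, MW150 and SMN-C3. The part of neutrophil RNA in the Itgb2 levels was not tested.

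Inhibitors differed widely in abundance. Serping1, which blocks the proteases bound to C1q (ENSMUSG00000023224.12; chromosome 2, 84765387 to 84775444, minus strand), had listed values of 0, 1.43 and 0.618 TPM in the WT libraries and 2.26, 3.72 and 0.983 TPM in those of SMA. With MW150 it was at 3.77, 1.27 and 2.88 TPM, with Pifithrin-alpha listed at 2.27, 1.36 and 0 TPM and with SMN-C3 at 0.745, 0 and 0.728 TPM. SMA overlapped WT (log2 0.98, adjusted p 0.39), and the SMN-C3 libraries lay below those of SMA (-1.11, unadjusted p 0.039, adjusted p 0.57). Serping1 and C4b had alike profiles over the 15 libraries (Pearson's r 0.86, and 0.76 after each group's mean was removed).

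Cd55, which takes apart the enzymes that cleave C3 (ENSMUSG00000026399.12; chromosome 1, 130439027 to 130462744, minus strand), stood at 118, 37.7 and 23.1 TPM in the WT libraries and 54.1, 28.6 and 25.6 TPM in those of SMA. With MW150 it was at 35.6, 32.1 and 16.9 TPM, with Pifithrin-alpha at 30.3, 56.2 and 97.9 TPM and with SMN-C3 at 39.1, 21.1 and 28.6 TPM. The highest values stood in WT 1 and SMA+Pifithrin-alpha 3, the libraries with 21.9% and 20.4% mitochondrial TPM, and the next in SMA+Pifithrin-alpha 2, with 12.6%. The fourth highest, 54.1 TPM, was in SMA 1, which had the lowest mitochondrial share, 3.76%. All groups overlapped. The change from WT to SMA was -0.45 (SE 0.52, adjusted p 0.67) and had the other sign, 0.20, without WT 1, as it did, at 0.35, with the mitochondrial share as a term in the fit. Within groups Cd55 ran against C1qb (r -0.79 with group means removed, 15 libraries that share these differences in mitochondrial TPM). Cd55 is overlapped by Gm16083 on the other strand and has a close copy, Cd55b, so its values carry that uncertainty.

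**Figure D3:**
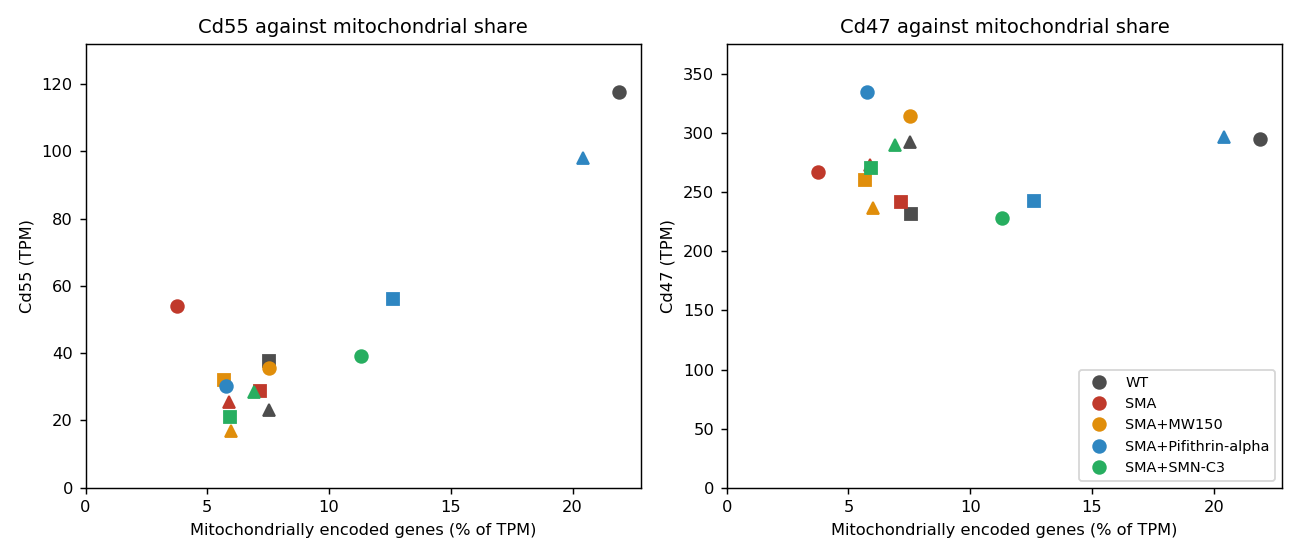
Cd55 (left) and Cd47 (right) in TPM (y axes, from 0) against the percent of TPM on mitochondrially encoded genes (x axis), 1 point per library coloured by group; circles, squares and triangles are replicates 1, 2 and 3. Cd55 is highest, at 118 and 97.9 TPM, in the libraries with 21.9% and 20.4%, whereas Cd47 there lies within the range of the others.

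Cd47 (ENSMUSG00000055447.19; chromosome 16, 49800533 to 49915010, plus strand) was the most abundant member. It stood at 295, 232 and 293 TPM in the WT libraries and 267, 242 and 273 TPM in those of SMA. In the treated groups it ranged from 229 to 335 TPM, and its mean over the 15 libraries was higher than that of 95.9% of tested genes. All groups overlapped, and the change from WT to SMA was -0.06 (95% interval -0.51 to 0.39, adjusted p 0.90). Against SMA it was 0.04 with MW150 (-0.41 to 0.49), 0.15 with Pifithrin-alpha (-0.30 to 0.60) and 0.01 with SMN-C3 (-0.44 to 0.46).

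Cd47 transcripts differ in the cytoplasmic tail, where a pair of short exons is included or skipped. Their coding bases are shown because these forms make up nearly all Cd47 RNA. The lines run from the last exon before the choice (chr16:49906781-49906812, plus strand, GRCm38, GENCODE M21) to the end of the coding sequence before the stop codon, and capitals mark the alternative exons, of 25 bases (chr16:49908054-49908078) and 33 bases (chr16:49908703-49908735). The long form (ENSMUST00000229206.1) has both, the middle form (ENSMUST00000229101.1) the first and the short form (ENSMUST00000084838.13) neither.
long: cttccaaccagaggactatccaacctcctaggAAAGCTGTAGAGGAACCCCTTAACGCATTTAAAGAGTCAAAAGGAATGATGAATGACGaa
middle: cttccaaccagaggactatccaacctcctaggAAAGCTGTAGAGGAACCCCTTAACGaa
short: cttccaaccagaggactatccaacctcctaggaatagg
The long form made up 54.9% to 67.8% of Cd47 TPM over the 15 libraries. Its mean was 57.4 ± 2.15% in WT, 58.3 ± 2.01% in SMA, 58.1 ± 4.11% with MW150, 58.1 ± 3.01% with SMN-C3 and 64.4 ± 3.18% with Pifithrin-alpha (SD, n = 3). All 3 Pifithrin-alpha libraries (61.6% to 67.8%) lay above the SMA libraries (56.4% to 60.4%) and the WT libraries (55.2% to 59.5%). The MW150 libraries (54.9% to 62.7%) overlapped them, and those of SMN-C3 reached 61.5%. These differences were not tested. The short form took 37.4% in WT 1 and 19.2% to 27.4% in the other 14 libraries. Between SMA and WT no Cd47 transcript was called.

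**Figure D4:**
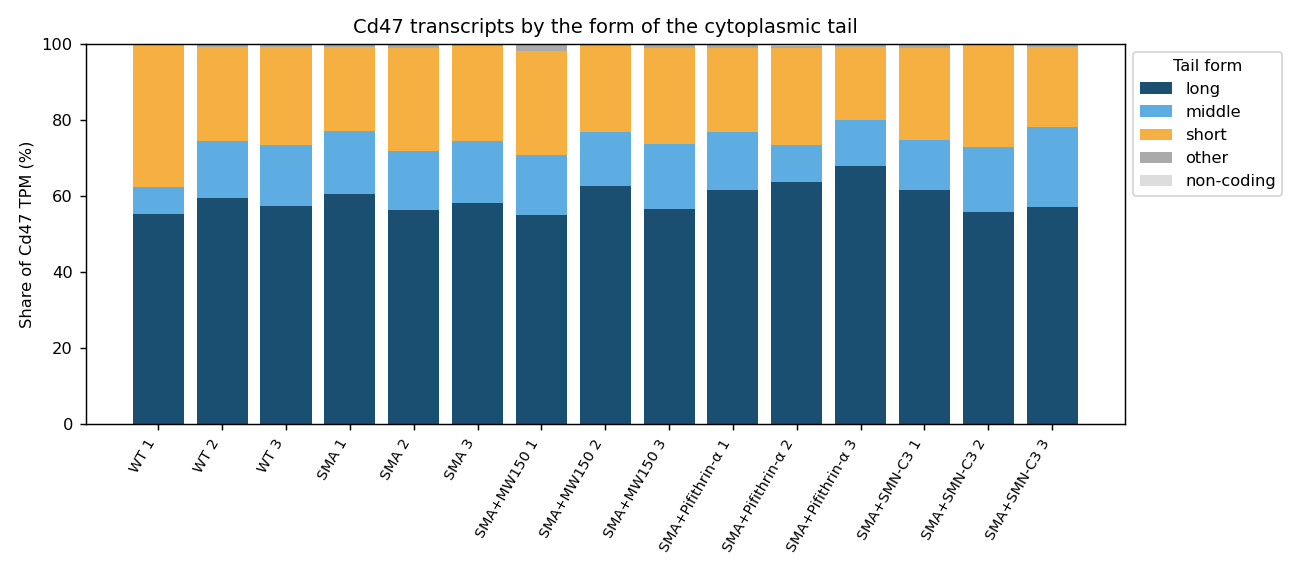
Share of Cd47 TPM (y axis, %) taken by each form of the cytoplasmic tail in each library (x axis), stacked to 100%. The long form takes 54.9% to 67.8% in every library, and the short form is largest in WT 1, at 37.4%.

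Counts of members are read against all tested genes. Between SMA and WT, 1 of 9 tested members was called at an adjusted p under 0.05, where 0.363% of the 15425 tested genes were. At an unadjusted p under 0.05, 4 members were higher in SMA (C1qa, C1qb, C1qc and Itgb2), against 10.6% of all genes. Itgb2 passed the filter through 2 SMA libraries and 1 with MW150, so its place in this count is not independent of its SMA level. For 3 members, the C1q genes, every SMA library lay above every WT library, against 14.5% of all genes. The median log2 change was 0.98 over the 9 members and 0.24 over all genes, of which 66.5% had higher estimates. How much of a member's change is a shift common to many genes was not tested. With median-of-ratios scaling the change was 1.70 for C1qa, 1.55 for C1qb, 1.62 for C1qc (adjusted p 0.047) and -0.32 for Cd47. At the level of transcripts, 1 of 17 tested member transcripts was called, the coding transcript of C1qc (log2 1.86, adjusted p 0.035), against 0.221% of all tested transcripts. That call was lost with median-of-ratios scaling, quantile normalization, the mitochondrial share as a term, the replicate block and a fit of SMA and WT alone. Over the 5 groups at once, the moderated F test of limma called 0 of 9 members (0.22% of all genes), with C1qc at an adjusted p of 0.073. The C1q genes and Itgb2 had an unadjusted F-test p under 0.05, as did 9.46% of all genes. The place of Itgb2 among these is likewise not independent of its SMA level.

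**Figure D5:**
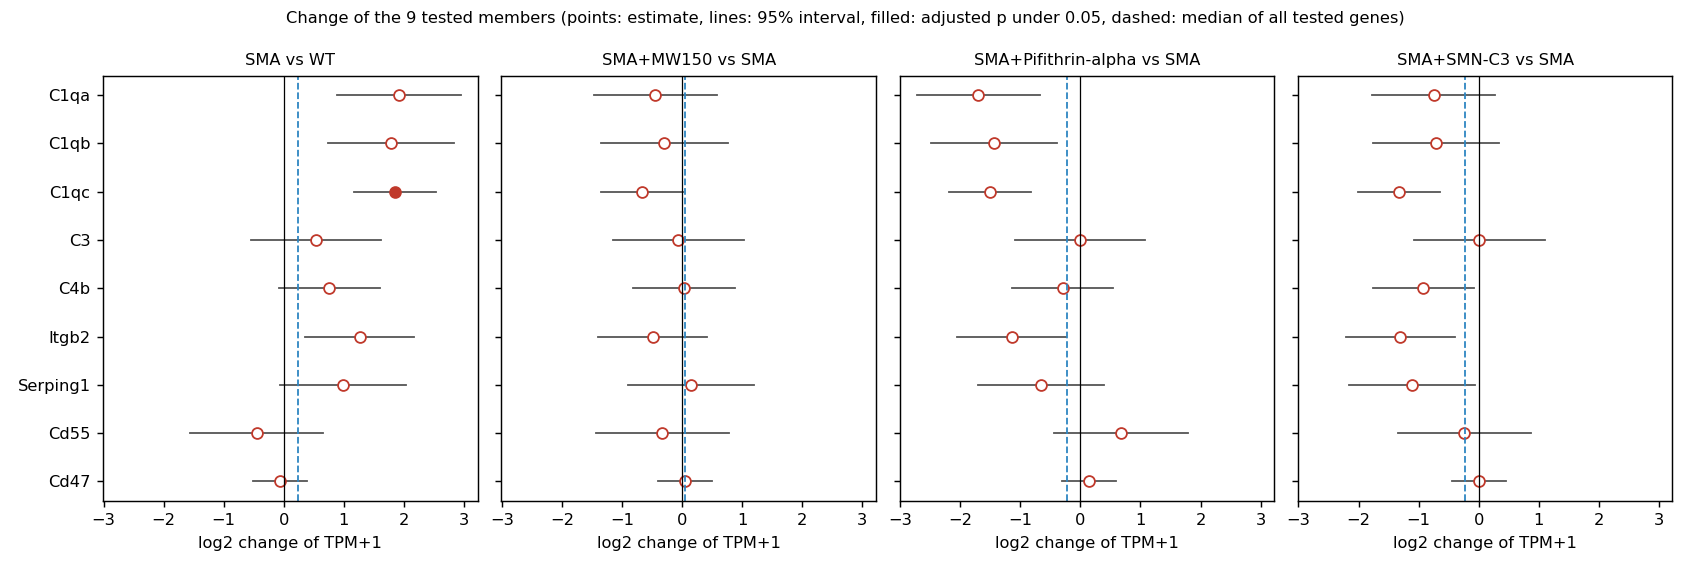
Log2 change of TPM+1 (x axis) of the 9 tested members in 4 comparisons, with 95% intervals; filled points passed an adjusted p of 0.05 and the dashed line is the median of all tested genes. C1qc between SMA and WT (1.86) is the 1 filled point.

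The treatments share the SMA libraries as their control, so their values are given side by side and not correlated. With MW150 against SMA, limma called 0 members at an adjusted p under 0.05 (0.00648% of all genes), and 0 were lower at an unadjusted p under 0.05 (0.389%). The libraries did not overlap for 2 members, C1qa and C1qc, both lower with MW150 (3.41% of all genes). C1qc differed by -0.66 (95% interval -1.35 to 0.02, adjusted p 1), C1qa by -0.45 and C1qb by -0.29. Against WT, MW150 gave 0 members called (0.143%), and 4 were higher at an unadjusted p under 0.05 (9.56%): C1qa by 1.47, C1qb by 1.49, C1qc by 1.20 and Serping1 by 1.14 (adjusted p 0.41, 0.42, 0.29 and 0.48). All 3 MW150 libraries lay above WT for 4 members, C1qa, C1qb, C1qc and Itgb2 (17.9% of all genes). Itgb2 passed the filter through SMA and MW150 libraries, so its place in this count is not independent of them.

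With Pifithrin-alpha against SMA, limma called 0 members (0.00648% of all genes). At an unadjusted p under 0.05, 4 were lower, against 7.55% of all genes: C1qa by -1.70, C1qb by -1.44, C1qc by -1.50 and Itgb2 by -1.14, each with an adjusted p of 0.46. Itgb2 passed the filter mainly through SMA libraries, so its place in this count is not independent of its SMA level. C1qa and C1qc did not overlap between these groups (9.76% of all genes). The spread was uneven, since the C1q sum was 42.8, 22.9 and 13.8 TPM in the 3 libraries, while C1qc alone stayed within 7.40 to 8.57 TPM. Against WT, Pifithrin-alpha gave 0 members called (0.117%), 0 higher at an unadjusted p under 0.05 (4.11%) and 0 with all libraries above WT (4.79%). The difference from WT was 0.22 for C1qa (95% interval -0.81 to 1.24), 0.34 for C1qb (-0.71 to 1.40) and 0.36 for C1qc (-0.33 to 1.04), and each interval includes 0. Without SMA+Pifithrin-alpha 3 and WT 1 in the fit, the differences from SMA were -1.04 for C1qa, -0.90 for C1qb and -1.52 for C1qc (adjusted p 0.43, 0.47 and 0.33).

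With SMN-C3 against SMA, limma called 0 members (0.0648% of all genes). At an unadjusted p under 0.05, 4 were lower, against 7.94% of all genes: C1qc by -1.32 (SE 0.32, adjusted p 0.17), C4b, Itgb2 by -1.30 (adjusted p 0.40) and Serping1. Here, too, Itgb2 had passed the filter mainly through SMA libraries, so its place in the count is not independent of its SMA level. All SMN-C3 libraries lay below SMA for C1qa, C1qc, C4b and Serping1 (18.2% of all genes). Without SMA+Pifithrin-alpha 3 and WT 1 in the fit, C1qc passed, with the same -1.32 and an adjusted p of 0.034, where 1.09% of all genes were called. C1qa differed by -0.75 (95% interval -1.77 to 0.28) and C1qb by -0.71 (-1.76 to 0.35). Against WT, SMN-C3 gave 0 members called (0.0194%), and C1qa (1.17, adjusted p 0.67) and C1qb (1.08, 0.67) were higher at an unadjusted p under 0.05 (2.23% of all genes). The same 2 were the members with every SMN-C3 library above every WT library (4.03% of all genes), and C1qc differed from WT by 0.54 (-0.15 to 1.22).

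Astrocyte and oligodendrocyte lineage markers differed in level beside the complement genes. For SMA against WT, 10 of 10 astrocyte markers and 8 of 10 oligodendrocyte markers had higher estimates. For SMN-C3 and for Pifithrin-alpha against SMA, 10 of 10 in each list had lower ones. For MW150 against SMA, 10 of 10 astrocyte markers had lower estimates, and 7 oligodendrocyte markers had higher and 3 lower ones. Over all genes 66.5% were higher in SMA than in WT, and 73.2% with SMN-C3, 65.5% with Pifithrin-alpha and 42.1% with MW150 were lower than in SMA. The astrocyte sum was 268 to 347 TPM in WT, 363 to 725 in SMA, 325 to 610 with MW150, 162 to 306 with SMN-C3 and 163 to 363 with Pifithrin-alpha. The oligodendrocyte sum was 688 to 2077 TPM in WT, 888 to 4260 in SMA, 980 to 5849 with MW150, 644 to 1814 with SMN-C3 and 445 to 1380 with Pifithrin-alpha. No marker of either list was at 0 in all libraries of a group, and the part of these cells in the complement differences was not tested.

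Among 41 other complement genes in the table, 22 were tested and none was called in any of the 7 comparisons. For SMA against WT, 11 estimates were higher and 11 lower, with a median of 0.09 against 0.24 over all genes, and in limma 1 was higher and 2 were lower at an unadjusted p under 0.05, where 10.6% of all genes were higher and 2.88% lower. For MW150 against SMA, 13 estimates were higher and 9 lower, where 57.9% of all genes were higher. In limma 4 of these were higher at an unadjusted p under 0.05 (1.51% of all genes) and 0 lower (0.389%). For Pifithrin-alpha and for SMN-C3 against SMA, 0 had such a p in either direction (7.55% and 7.94% of all genes were lower). C1q needs the proteases C1r and C1s, and neither passed the filter. C1ra was at 0.0637 to 0.0975 TPM in WT and 0.171 to 0.651 TPM in SMA, and C1s1 at 0.0167 to 0.0561 TPM and 0.482 to 1.25 TPM. Neither gene overlapped between these groups, as was so for 14.5% of tested genes in that direction. At levels this low, with depth unknown, this is only a description. Over all 15 libraries C1ra ranged from 0.0171 to 0.651 TPM and C1s1 from 0 to 2.59 TPM. C2, which pairs with C4 in the next step, was at 2.50, 1.63 and 5.64 TPM with MW150 and 0.785, 0.207 and 0.950 TPM in SMA (log2 1.29, unadjusted p 0.030, adjusted p 1). Cfb, its counterpart in the alternative pathway, stayed within 0 to 3.03 TPM. The anaphylatoxin receptors C3ar1 and C5ar1 ranged from 0.0112 to 1.59 TPM and from 0.151 to 3.44 TPM. Of 7 terminal pathway genes only C8g passed the filter.

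The surface regulators Cd59a, Cr1l and Csmd1 were above 1 TPM in every library. Cd59a, which blocks the membrane attack complex, was at 58.1 to 138 TPM and Cr1l (Crry), the main rodent regulator of C3 cleavage, at 19.9 to 36.1 TPM, with changes of 0.34 and 0.35 between SMA and WT (adjusted p 0.48 and 0.50). The secreted Cfi was at 0 to 1.15 TPM. Clu, a secreted inhibitor of the terminal complex, was at 134 to 623 TPM (0.74, adjusted p 0.40). Csmd1, a neuronal membrane inhibitor, was at 27.8, 5.06 and 10.4 TPM in WT, 3.81, 6.07 and 5.05 TPM in SMA and 11.5, 13.2 and 11.1 TPM with MW150. Its changes of -1.09 (SMA against WT) and 1.13 (MW150 against SMA) had adjusted p values of 0.37 and 1. Srpx2, a neuronal protein that binds C1q, was at 0.713 TPM on average in the WT libraries and 2.60 TPM in those of SMA (1.11, adjusted p 0.37).

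Of 20 engulfment genes outside complement, all were tested and none was called. Cx3cr1, P2ry12, Trem2 and Tyrobp are also among the microglia markers, so the counts of these lists are not independent. Between SMA and WT, 17 had higher estimates, 5 of them with an unadjusted p under 0.05, and 1 of the 3 lower ones had such a p. The median was 0.33. Over all genes 66.5% had higher estimates, 10.6% with such a p, and the median was 0.24. Sirpa, the receptor for Cd47, was at 18.4 TPM on average in the WT libraries and 22.5 TPM in those of SMA (0.30, adjusted p 0.64). Its largest change from SMA with any treatment was -0.27, with Pifithrin-alpha (adjusted p 0.70). With Pifithrin-alpha and with SMN-C3, 18 and 17 of the 20 had lower estimates than in SMA, 6 in each case with an unadjusted p under 0.05. Over all genes 65.5% and 73.2% had lower estimates, 7.55% and 7.94% with such a p. With MW150, 10 of the 20 were higher and 10 lower.

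The genes whose log2 level ran most like the mean of the C1q genes over the 15 libraries were S100a4 (r 0.97), Lsm2 (0.95), Dnal4 (0.94), Ifitm2 (0.94) and Bcat2 (0.93). S100a4, a calcium-binding protein, had listed values of 0, 1.85 and 1.76 TPM in the WT libraries and 7.02, 10.5 and 8.53 TPM in those of SMA. Ifitm2, an interferon-induced membrane protein, stood at 8.17, 31.9 and 32.4 TPM in the WT libraries and 72.5, 104 and 63.9 TPM in those of SMA. Neither was called (adjusted p 0.069 and 0.10). For the other members the 2 most alike genes were Rimkla (0.88) and Loxl4 (0.83) for C3, Depdc1b (0.93) and St18 (0.92) for C4b, Ptges3-ps (0.92) and Gm43725 (0.89) for Itgb2, Cenpt (0.95) and Atp6v0a2 (0.94) for Serping1, Snx16 (0.93) and Thumpd3 (0.91) for Cd55, and Psmd1 (0.84) and Map2k4 (0.82) for Cd47. These are the highest of 15425 genes over 15 points that share library composition, and are given as a description.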

How the data were processed

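The authors deposited TPM values for genes and for transcripts in 15 libraries, made with kallisto 0.44.0 on GRCm38.p6 (mm10), per the submitters' processing notes, which also name DESeq2 without a version. Each library summed to 1000000. The annotation release is not given in the sources used here; 98.6% of transcript identifiers matched GENCODE M21 (GRCm38), from which coordinates were taken.

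The 15425 genes that reached 1 TPM in 3 or more libraries were fitted as log2(TPM+1) with limma 3.58.1 in R 4.3.3, with 1 mean per group over all 15 libraries and a variance trend. Tests were two-sided and adjusted by Benjamini-Hochberg within each of 7 comparisons, and a gene was called at an adjusted p under 0.05. A pseudocount of 1 understates the change of low genes. TPM keeps no counts, so no count model was used and depth is unknown.

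The fit was tested on simulated data. Members and gene lists were chosen with earlier results of these data known. Named genes are all members, the 5 genes most alike the C1q mean and 2 for each other tested member, every called gene of the 2 pathway lists, and genes of known role in them and in the marker lists. C8g, S100a8, S100a9, Ly6g, Camp, Elane and Lyve1 were named after their values were seen. Alternatives covered the pseudocount, the filter, scaling, mitochondrial share, array weights, the replicate block, the groups in the fit and leaving out each library. Sequences came from RefSeq promoters (GRCm38.p6; 6 of 10 members had an entry) and GENCODE M21 transcripts.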

Additional observations from a re-analysis of the deposited data

How the results depend on the processing

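C1qa, C1qb and C1qc kept their direction in all 18 alternatives for SMA against WT and for each treatment against SMA. Itgb2 kept its direction too, but in 14 or 15 alternatives, since it failed the filter in the others. Leaving out SMA 1 or SMA 3 was among these, so Itgb2 was not tested without either of its highest libraries. The count of called members between SMA and WT, 1 as reported, was 3 with array weights (the C1q genes, 1.05% of all genes called). It was 0 in a fit of only these groups (0.0454% of all genes) and 0 to 1 when each library was left out (0.131% to 0.365%). Without the libraries over 20% mitochondrial TPM, an alternative chosen after seeing the data, it was 2 (C1qa and C1qc, 0.578% of all genes). With array weights the counts, 0 as reported, were 5 for Pifithrin-alpha against SMA (the C1q genes, Itgb2 and Cd55), 1 for SMN-C3 against SMA (C1qc), 1 for MW150 against WT (C1qa) and 6 for the F test. Array weights then called 33.4%, 2.15%, 1.61% and 64.0% of all genes. Without the libraries over 20% mitochondrial TPM the counts were 1 for SMN-C3 against SMA (1.09% of all genes) and 1 for the F test (0.86%), C1qc in both. The count of member transcripts between SMA and WT, 1 as reported, was 0 with median-of-ratios scaling, quantile normalization, the mitochondrial share as a term, the replicate block, only these groups, or without the libraries over 20% mitochondrial TPM, and 0 to 1 when each library was left out. The cause was not tested.

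Some members that did not pass the test turned sign. Cd55 between SMA and WT was 0.35 with the mitochondrial share as a term, 0.20 without the libraries over 20% mitochondrial TPM, and -0.95 to 0.20 when each library was left out; for Pifithrin-alpha it was -0.20 with that term. C3 for Pifithrin-alpha was 0.62 with a pseudocount of 0.1, 0.079 with median-of-ratios scaling, 0.10 with quantile normalization, 0.065 with mitochondrial genes removed, 0.28 with their share as a term, 0.079 with array weights and 0.32 without the libraries over 20%. C3 was 0.56 for MW150 with a pseudocount of 0.1, and -0.061 for SMN-C3 with a pseudocount of 5 and -0.11 with array weights. C4b for MW150 was -0.0074 with median-of-ratios scaling and -0.088 with quantile normalization, and for Pifithrin-alpha 0.025 with the mitochondrial term. Cd47 was 0.059 for SMA and -0.11 for Pifithrin-alpha with array weights, and -0.030 for MW150 with median-of-ratios scaling. Leaving out each library gave C3 -0.020 to 1.17 for SMA, -0.70 to 0.49 for MW150, -0.64 to 0.55 for Pifithrin-alpha and -0.63 to 0.56 for SMN-C3. For MW150 it gave C4b -0.14 to 0.32, Serping1 -0.17 to 0.46 and Cd47 -0.069 to 0.13. For SMN-C3 it gave Cd55 -0.46 to 0.082 and Cd47 -0.066 to 0.11. Where a group is left with 2 libraries, the fit still pools the spread of all groups.

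Replicate numbers did not pair the libraries. Over 30 pairs with the same number the correlation of deviations ran from -0.34 to 0.28 (median 0.008, against 0.0075 for other pairs). For 7 of 15 libraries, the mean correlation with other groups was highest for libraries of their own number. With the replicate block, 1 member was called between SMA and WT, as without it. C3, C4b, Itgam, Itgb2 and Serping1 were under 5 TPM throughout; how far depth limits them is unknown, since TPM does not show it.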
